A study of Mus musculus with 6 samples.

Results

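The genes described here are the Fc gamma receptors of the mouse and the small adaptors that signal for them and for related myeloid receptors. They were chosen by name: Fcgr1, Fcgr3, Fcgr4, Fcgr2b, Fcer1g and Tyrobp, which makes 6 of the 24391 genes in the count table, and all 6 were listed and passed the filter on low counts. RNA was sequenced from brachiocephalic arteries with atherosclerotic lesions of 3 Col15a1 -/- mice (KO) and 3 wild type mice (WT), all on a C57BL/6 background, after 18 weeks on a Western diet. The deleted gene codes for type XV collagen, which is found at basement membranes. By the series title only smooth muscle cells lack the gene, whereas the genotype label says just Col15a1 -/-. The labels name no Cre driver and no allele that promotes atherosclerosis, and whether the groups share one cannot be told from them. The tissue is labelled as a mixture of cell types, and the design counts 3 animals in each group, so the spread given below is between animals.

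Fc gamma receptors bind the Fc part of IgG and couple antibody-coated particles and immune complexes to macrophages, neutrophils, NK cells and other leukocytes. Fcgr1 (high affinity for IgG), Fcgr3 and Fcgr4 (low to intermediate affinity) are activating receptors: each needs the gamma chain encoded by Fcer1g, whose cytoplasmic tyrosine motif (ITAM) recruits the kinase SYK once phosphorylated. Fcgr2b is the inhibitory receptor of the family, carries its own inhibitory motif (ITIM) and recruits the phosphatase SHIP1, encoded by Inpp5d. Tyrobp encodes DAP12, another ITAM adaptor, which pairs with other receptors such as TREM2. In atherosclerotic arteries these genes are known mainly from macrophages, which take up lipoprotein-containing immune complexes through them.

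Fcgr2b, Fcgr4 and Fcgr3 lie next to each other on mouse chromosome 1. In the coordinates of the count table (mm9) Fcgr2b spans chr1:172890689-172906202 on the minus strand, Fcgr4 chr1:172949057-172959892 on the plus strand and Fcgr3 chr1:172981300-172989534 on the minus strand, with no other gene of the table in the gaps of 42854 and 21407 bases. Fcer1g lies farther along the same chromosome, at chr1:173159703-173164480 on the minus strand. Fcgr1 is at chr3:96086832-96097892 on the minus strand and Tyrobp at chr7:31198807-31202598 on the plus strand. No member overlapped another gene of the table. The extracellular parts of Fcgr2b and Fcgr3 are near-identical, and 10.7% of the 50-base words in the protein-coding transcripts of Fcgr2b and 10.2% of those of Fcgr3 also occurred in transcripts of another gene (GENCODE M21). The 166 shared words of Fcgr3 were all found in Fcgr2b, which shared 395 in all. A read that aligns in several places was not counted, so the levels of these 2 genes carry that uncertainty. The other 4 members shared no such word with any gene.

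The promoter windows of the receptors are shown for reference, and their part in the levels of the members was not tested. Each runs from 250 bases before to 50 bases after the annotated start (RefSeq, GRCm38.p6, 5′ to 3′ on the strand of the gene). In that build they are chr3:96293920-96294219 (minus strand) for Fcgr1, chr1:171059354-171059653 (minus) for Fcgr3, chr1:171018676-171018975 (plus) for Fcgr4 and chr1:170976022-170976321 (minus) for Fcgr2b. Of the 6 members 5 had a window, and Tyrobp is named only; Fcgr3 had 2, of which the one at position -6 below is printed. Capitals mark the core of the PU box, GAGGAA or its reverse complement TTCCTC, which PU.1 binds; both strands were searched.
Fcgr1: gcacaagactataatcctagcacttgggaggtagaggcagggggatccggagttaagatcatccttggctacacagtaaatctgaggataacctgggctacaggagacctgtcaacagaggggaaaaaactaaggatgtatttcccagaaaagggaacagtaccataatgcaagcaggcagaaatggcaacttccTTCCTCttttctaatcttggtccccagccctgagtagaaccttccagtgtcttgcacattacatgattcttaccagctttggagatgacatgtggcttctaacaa
Fcgr3: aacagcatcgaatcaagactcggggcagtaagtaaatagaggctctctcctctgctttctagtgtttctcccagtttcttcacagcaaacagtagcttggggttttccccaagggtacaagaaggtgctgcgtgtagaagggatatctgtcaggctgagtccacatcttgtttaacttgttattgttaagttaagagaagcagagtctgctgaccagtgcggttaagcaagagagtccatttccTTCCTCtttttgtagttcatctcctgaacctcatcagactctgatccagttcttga
Fcgr4: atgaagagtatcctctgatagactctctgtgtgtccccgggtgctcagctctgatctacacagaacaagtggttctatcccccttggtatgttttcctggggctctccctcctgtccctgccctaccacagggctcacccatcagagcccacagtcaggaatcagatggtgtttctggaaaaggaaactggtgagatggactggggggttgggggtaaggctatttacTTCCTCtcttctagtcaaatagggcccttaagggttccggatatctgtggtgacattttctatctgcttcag
Fcgr2b: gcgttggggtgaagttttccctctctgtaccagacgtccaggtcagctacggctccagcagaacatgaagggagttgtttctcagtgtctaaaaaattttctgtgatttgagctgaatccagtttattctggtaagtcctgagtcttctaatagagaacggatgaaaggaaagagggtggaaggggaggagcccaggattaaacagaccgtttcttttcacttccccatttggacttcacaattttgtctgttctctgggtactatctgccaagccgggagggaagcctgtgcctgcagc
All 3 activating receptors had the PU box core in the orientation TTCCTC close to the start, with its first base at position -55 in Fcgr1, -6 in Fcgr3 and -22 in Fcgr4. The windows of Fcgr2b and Fcer1g held no match. Of 32544 distinct mouse windows of this length, 28.1% held the PU box core. These are matches of letters and were not tested as binding sites.

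The libraries held 22223584 to 26982005 gene counts, and the lowest member count in any library was 326 (Fcgr4 in KO 3), where counting alone gives an error of 5.54%. Levels are CPM, the count of a gene relative to the size of its library, with library sizes scaled by the trimmed mean of M values (TMM). Col15a1, the targeted gene, was at 194, 198 and 91.0 CPM in KO 1, KO 2 and KO 3, against 574, 407 and 501 CPM in WT 1, WT 2 and WT 3 (log2 fold change -1.62, SE 0.33, edgeR adjusted p 0.587; DESeq2 adjusted p 0.00224). KO 3 and WT 2 lay away from the rest, with 9 sympathetic nerve markers summing to 4284 CPM in KO 3 and 2003 CPM in WT 2, against 145 to 215 CPM elsewhere. They were also at the ends of the range for the ribosomal RNA gene Rn45s, with 10.4% of counts in KO 3 and 2.04% in WT 2, against 6.25% to 9.57% elsewhere; its part in the values of the members was not tested. Results are therefore also given without both. Smooth muscle, macrophage and endothelial markers were present in every library. In whole arteries a lower level of a leukocyte transcript can come from fewer cells of that type or from less RNA per cell. As CPM are relative to the library, a lower level can also come from more RNA of other cells. These cannot be told apart here.

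All 6 members were lower in KO than in WT arteries, by 1.56-fold for Fcgr2b to 2.00-fold for Tyrobp, and for each of them every KO library lay below every WT library. That order held for 8.38% of the 15937 genes tested. No member passed edgeR's quasi-likelihood test after Benjamini-Hochberg adjustment over all genes tested, and neither did any other gene (0% called, smallest adjusted p 0.587). All members but Tyrobp, 5 of 6, had an unadjusted edgeR p under 0.05, and 3.98% of all genes tested were lower in KO at that level. With 1 library left out, the count of members at that level was 6 without KO 1, 4 without KO 2 and 6 without KO 3, where 5.81%, 3.47% and 4.51% of all genes were lower at that level. It was 3 without WT 1, 2 without WT 2 and 3 without WT 3, where those shares were 2.69%, 2.24% and 2.56%. A negative log2 fold change was found for 39.1% of genes. The median log2 fold change of the members was -0.84, and that of all genes tested was 0.068. Log2 fold changes as low as that of Fcgr2b, the member with the smallest difference, or lower were found for 5.35% of genes. DESeq2, tried as an alternative, called 0.347% of its genes and no member, with a smallest member adjusted p of 0.0928 (Fcgr1). Without WT 2 and KO 3, edgeR called 0.00632% of genes and no member, with a smallest member adjusted p of 0.292.

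Fcgr1, which encodes the high-affinity receptor CD64, was at 24.6, 27.8 and 15.7 CPM in KO 1, KO 2 and KO 3, against 42.6, 48.7 and 36.8 CPM in WT 1, WT 2 and WT 3. The highest KO library thus stayed below the lowest WT library, and KO 3 was the lowest of the 6. The means were 22.7 ± 6.25 CPM in KO and 42.7 ± 5.98 CPM in WT (SD, n = 3 each), with a log2 fold change of -0.91 (SE 0.24), the smallest unadjusted p of the members (0.00849) and an edgeR adjusted p of 0.587.

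Fcgr3, the activating receptor with the highest level of the family, was at 102, 94.6 and 47.4 CPM in the KO libraries in the same order, against 129, 139 and 147 CPM in the WT libraries. KO 1 and KO 2 were close to each other and KO 3 lay well below both, while the WT libraries kept within a narrow band. Its means were 81.4 ± 29.6 CPM in KO and 138 ± 9.06 CPM in WT (SD, n = 3 each), and its log2 fold change of -0.76 (SE 0.29) had an edgeR adjusted p of 0.610. Fcgr4, which binds mouse IgG2 subclasses, had 20.2, 18.9 and 12.9 CPM in KO arteries and 24.5, 35.0 and 28.2 CPM in WT arteries. KO 1 and WT 1, the highest KO and the lowest WT library for this gene, were close to each other. Its log2 fold change was also -0.76 (SE 0.22), with an edgeR adjusted p of 0.587.

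Fcgr2b, the inhibitory receptor, was at 51.2, 67.8 and 39.5 CPM in KO arteries, against 80.8, 89.1 and 77.6 CPM in WT arteries. KO 2 was the highest KO library for this gene and for Fcgr1, while KO 1 was the highest for the other 4 members. Fcgr2b averaged 52.8 ± 14.2 CPM in KO and 82.5 ± 5.94 CPM in WT (SD, n = 3 each), with a log2 fold change of -0.64 (SE 0.21) and an edgeR adjusted p of 0.587.

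Both adaptors were lower as well. Fcer1g, the gamma chain shared by the 3 activating receptors, was at 36.95, 30.3 and 15.02 CPM in KO arteries and at 47.1, 51.1 and 56.7 CPM in WT arteries. Its means were 27.4 ± 11.3 CPM in KO and 51.6 ± 4.79 CPM in WT (SD, n = 3 each), its log2 fold change was -0.91 (SE 0.33) and its edgeR adjusted p 0.589. Tyrobp was at 84.99, 66.3 and 23.9 CPM in KO arteries and at 102, 116 and 132 CPM in WT arteries. It had the widest spread among KO libraries in proportion to its mean, 58.4 ± 31.3 CPM, against 117 ± 14.8 CPM in WT (SD, n = 3 each), and its log2 fold change of -1.0 (SE 0.44) had an edgeR adjusted p of 0.632. KO 3 was the lowest library for all 6 members. Without KO 3 their log2 fold changes ran from -0.70 to -0.47, with -0.63 for Tyrobp and -0.49 for Fcgr3, and without WT 2 and KO 3 from -0.64 to -0.42, with -0.44 for Fcgr4; the direction stayed the same for each.

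**Figure D1:**
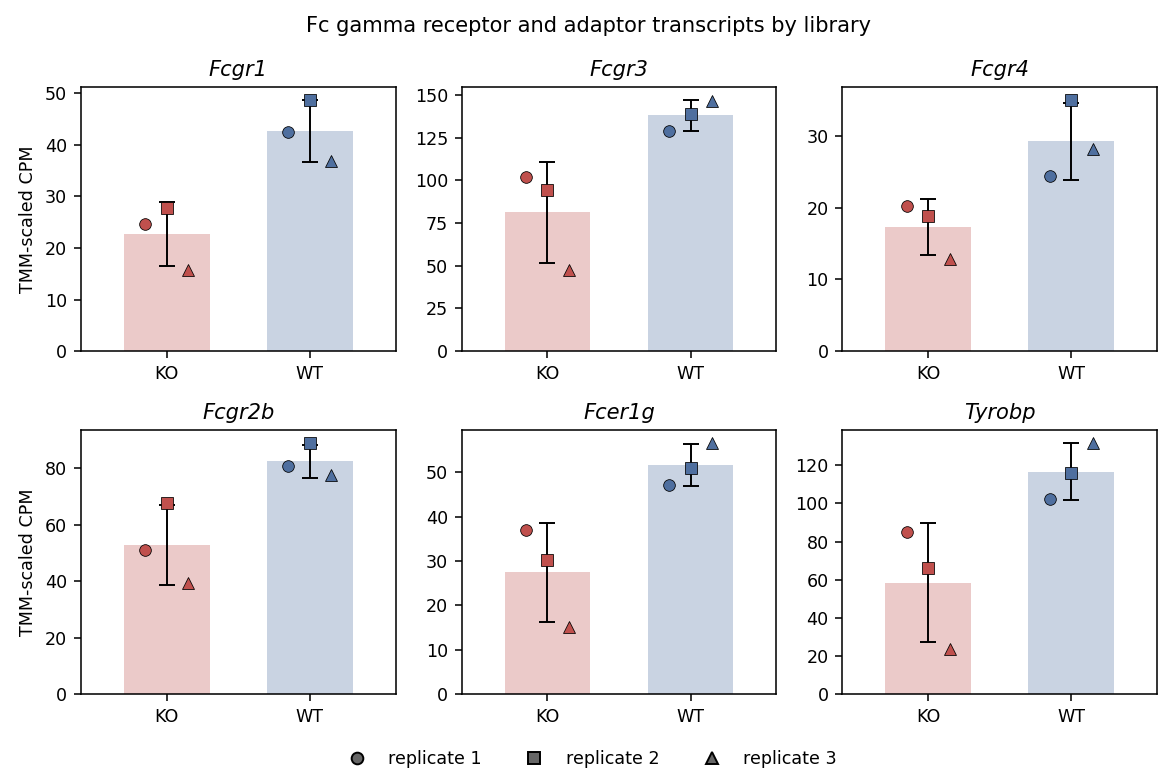
TMM-scaled CPM of the 6 members, 1 panel a gene, with KO on the left and WT on the right of each panel. Symbols are single libraries (circle, replicate 1; square, replicate 2; triangle, replicate 3), bars are means from 0 and error bars are the SD over 3 animals; in every panel the KO symbols lie below the WT symbols and KO 3 is lowest.

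Compared per kilobase of exon length, Fcgr3 had the highest level of the 4 receptors in both groups, followed by Fcgr2b, Fcgr4 and Fcgr1. The levels were 60.1 ± 21.9 CPM per kb for Fcgr3, 34.1 ± 9.21 for Fcgr2b, 13.8 ± 3.12 for Fcgr4 and 8.78 ± 2.42 for Fcgr1 in KO arteries (SD, n = 3). In WT arteries they were 102 ± 6.69, 53.3 ± 3.84, 23.4 ± 4.29 and 16.5 ± 2.31 CPM per kb for the same genes in that order (SD, n = 3). The order was the same within each of the 6 libraries. Across animals no neighbours in this order overlapped in WT, while in KO the range of Fcgr3 overlapped that of Fcgr2b, and that of Fcgr4 overlapped that of Fcgr1. Tyrobp stood above every receptor in both groups, at 103 ± 55.3 CPM per kb in KO and 206 ± 26.2 CPM per kb in WT, and Fcer1g stood between Fcgr3 and Fcgr2b in every library but KO 3, where it was below Fcgr2b, at 41.7 ± 17.1 CPM per kb in KO and 78.4 ± 7.28 CPM per kb in WT (SD, n = 3 each).

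The summed level of the receptors did not overlap between the genotypes, which followed from the order of each receptor given above. The share of each receptor in that sum did overlap. The 4 receptors together reached 134, 139.6 and 76.9 CPM per kb in KO 1, KO 2 and KO 3, against 183, 207 and 195 CPM per kb in WT 1, WT 2 and WT 3. Fcgr3 made up 50.6 ± 5.35% of this sum in KO and 52.3 ± 2.97% in WT, and Fcgr2b 29.7 ± 4.49% in KO and 27.3 ± 1.46% in WT (SD, n = 3 each). The shares of Fcgr4 were 12.1 ± 1.29% in KO and 11.9 ± 1.46% in WT, and those of Fcgr1 were 7.56 ± 0.421% in KO and 8.44 ± 1.01% in WT.

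**Figure D2:**
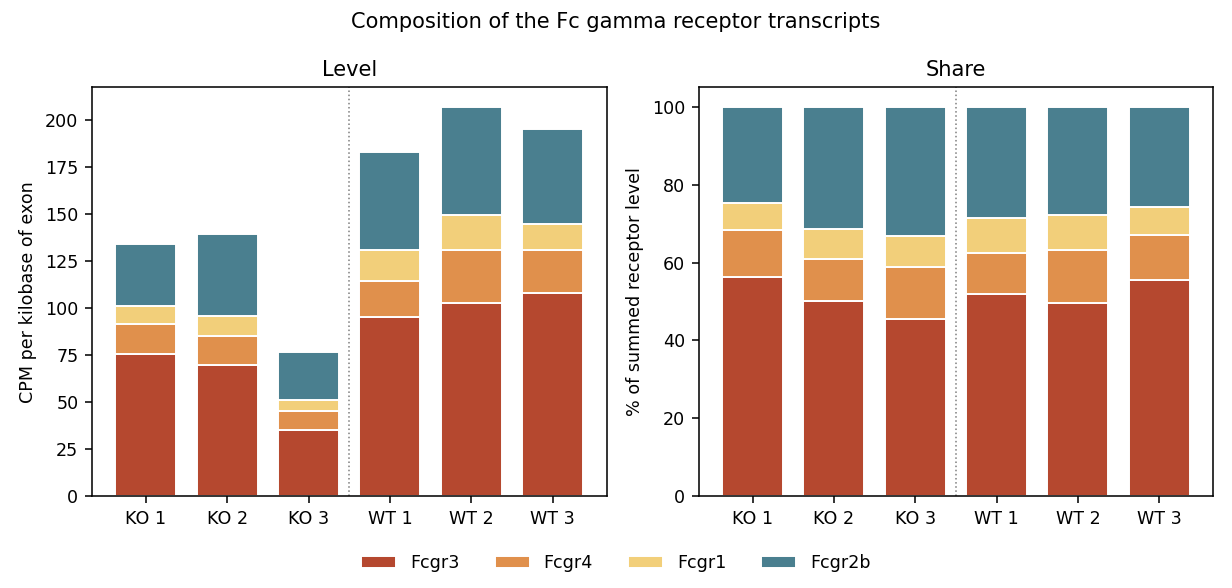
Fc gamma receptor transcripts in each library, KO libraries to the left and WT libraries to the right of the dotted line: stacked levels in CPM per kilobase of exon (left) and the same values as a percentage of their sum (right). The stacks reach 76.9 to 139.6 CPM per kb in KO and 183 to 207 CPM per kb in WT, and Fcgr3 is the largest part of each.

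The balance of the inhibitory to each activating receptor was examined as a ratio within each library, which does not depend on how libraries are scaled. The Fcgr2b to Fcgr1 ratio, per exon length, was 3.48, 4.08 and 4.199 in KO 1, KO 2 and KO 3, against 3.18, 3.06 and 3.53 in WT 1, WT 2 and WT 3. KO 1 lay below WT 3, so the groups overlapped, with means of 3.92 ± 0.386 in KO and 3.25 ± 0.245 in WT (SD, n = 3 each). The Fcgr2b to Fcgr3 ratio was 0.439, 0.627 and 0.728 in KO arteries and 0.549, 0.560 and 0.462 in WT arteries, with the lowest and the highest value both in KO. For Fcgr2b to Fcgr4 the ratio was 2.48 ± 0.429 in KO and 2.32 ± 0.316 in WT (SD, n = 3 each). On the log2 scale KO exceeded WT by 0.27, 0.16 and 0.09 for the ratios to Fcgr1, Fcgr3 and Fcgr4, and a two-sided exact permutation test gave p = 0.2, 0.5 and 0.7 (0.6, 0.7 and 0.7 adjusted over the 3 ratios). With 3 animals a group this test cannot go below 0.1. The differences moved with single animals: that for Fcgr3 was 0.37 without KO 1 and 0.01 without KO 3, and that for Fcgr4 was 0.22 without KO 1 and -0.03 without KO 2. Fcer1g stood at 0.494 ± 0.0568 of the summed activating receptors in KO and 0.552 ± 0.0378 in WT per exon length (SD, n = 3 each), with overlapping ranges.

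The members were then set against the leukocyte content of each artery. The 10 pan-leukocyte markers, among them Ptprc (CD45), were all lower in KO, with a median log2 fold change of -0.82 and a sum of 421 to 1075 CPM in KO and 1365 to 1601 CPM in WT. None of this list passed the edgeR test adjusted over all genes, and DESeq2 called 1, Coro1a (DESeq2 adjusted p 3.67e-06, edgeR adjusted p 0.587). Relative to the mean log2 CPM of that list, KO and WT overlapped for 5 of the 6 members, and the difference between group means ran from -0.23 for Tyrobp to 0.27 for Fcgr2b on the log2 scale. The exception was Fcgr3, at 0.63, 0.61 and 0.84 in KO 1, KO 2 and KO 3, just above the 0.59, 0.58 and 0.59 of the WT libraries. Relative to Ptprc alone, all 6 members overlapped, with differences from -0.25 (Tyrobp) to 0.25 (Fcgr2b).

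Set against the 16 macrophage markers, all 6 members had a lower mean in KO, with differences from -0.56 (Tyrobp) to -0.06 (Fcgr2b) on the log2 scale. Fcgr3 and Fcer1g were the members whose groups did not overlap on this measure, though by a narrow margin: the nearest libraries, KO 1 and WT 1, were both at -0.63 for Fcgr3 and at -2.10 in KO 1 and -2.08 in WT 1 for Fcer1g. The direction for Fcgr3 depended on the reference: KO was lower against this list (difference -0.22) and higher against the pan-leukocyte list (0.11). The share of all genes without overlap on these relative measures was not computed. Of the 16 markers, 12 were lower, each with every KO library below every WT library, an order found for 8.38% of all genes tested. The median log2 fold change was -0.88. The other 4, Mertk, Mrc1, Cd163 and Lyve1, had log2 fold changes of 0.01, 0.13, 0.98 and 1.13. The list mean includes these 4, so the differences above depend on the make-up of the list. The 16 markers summed to 2102 to 5362 CPM in KO and 6698 to 8016 CPM in WT. Cd163, a scavenger receptor of resident macrophages, had every KO library above every WT library, at 95.6, 112 and 161 CPM in KO arteries and 74.4, 33.1 and 79.3 CPM in WT arteries. Lyve1 had the same order, at 32.7, 46.7 and 63.2 CPM in KO arteries and 28.3, 12.4 and 24.5 CPM in WT arteries. That order, with KO above WT, held for 8.33% of the genes tested. Mrc1, the mannose receptor, overlapped, at 232, 401 and 274 CPM in KO and 339, 193 and 294 CPM in WT. The highest Cd163 level was in KO 3, the library with the lowest level of every member. Cd68 was at 127, 93.6 and 26.9 CPM in KO arteries and 141, 147 and 180 CPM in WT arteries, and Csf1r at 195, 247 and 165 CPM in KO arteries and 274, 256 and 279 CPM in WT arteries. No macrophage marker passed the edgeR test adjusted over all genes, and DESeq2 called 1. Without KO 3 the median log2 fold change was -0.57 for the macrophage list and -0.48 for the pan-leukocyte list, beside -0.60 for the members, and without KO 1 it was -1.11, -1.15 and -1.04 for these in the same order. The part of leukocyte content in the values of the members was not tested beyond these ratios.

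**Figure D3:**
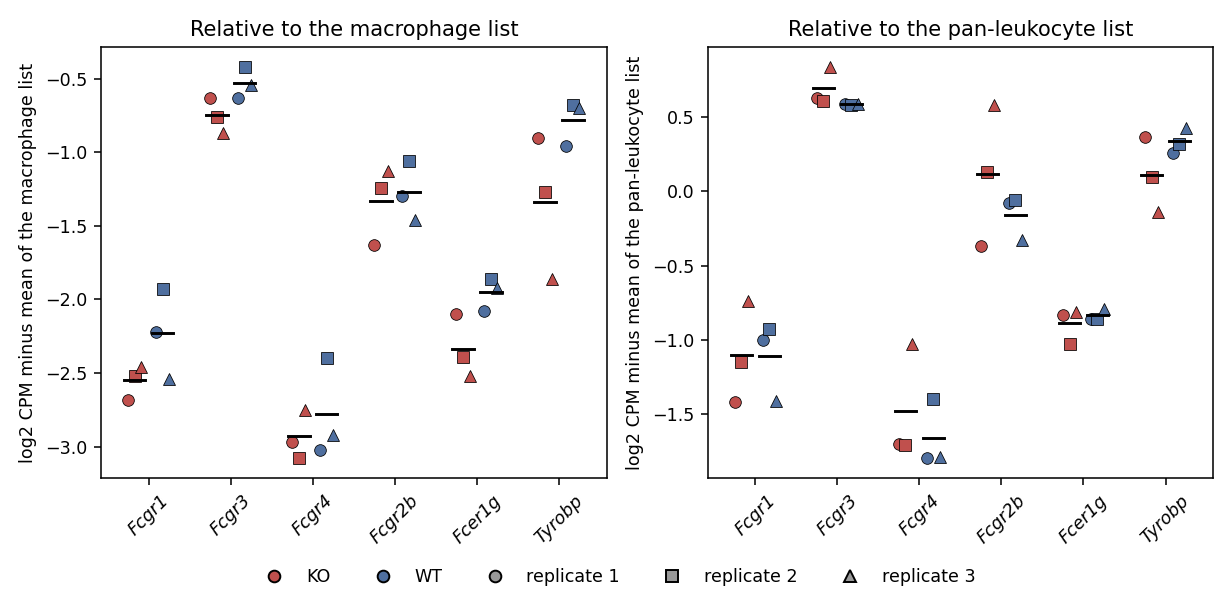
Log2 CPM of each member minus the mean log2 CPM of the macrophage list (left) and of the pan-leukocyte list (right), with KO in red to the left and WT in blue to the right for each gene; symbols are single libraries and bars are means of 3. Against the pan-leukocyte list the mean differences run from -0.23 to 0.27, and Fcgr3 is the member whose groups do not overlap.

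Genes that work with the members were lower as well, though none passed the edgeR test after adjustment. All 15 kinases and adaptors of ITAM signalling were lower by log2 fold change (median -0.66), 13 of them without overlap between the groups, and 9 were at an unadjusted edgeR p under 0.05. Over all genes tested, 39.1% were lower, 8.38% had every KO library below every WT library and 3.98% were lower at that p. The same shares apply to the lists that follow. Syk was at 108, 92.3 and 50.4 CPM in KO arteries and 114, 123 and 145 CPM in WT arteries. Lcp2 (the adaptor SLP-76) was at 18.96 ± 2.90 CPM in KO and 29.98 ± 1.71 CPM in WT, Lyn (a Src family kinase that phosphorylates ITAMs and ITIMs) at 60.9 ± 13.6 CPM in KO and 97.1 ± 6.06 CPM in WT, and Pik3cd at 45.1 ± 2.88 CPM in KO and 62.4 ± 8.38 CPM in WT (SD, n = 3 each). Vav1, a guanine nucleotide exchange factor downstream of SYK, had a log2 fold change of -1.04 (SE 0.31).

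On the inhibitory side 13 of 14 genes were lower, with a median of -0.77, and 10 did not overlap. Inpp5d, the phosphatase that Fcgr2b recruits, was at 74.3, 65.6 and 42.2 CPM in KO arteries and 95.5, 101 and 107 CPM in WT arteries, a log2 fold change of -0.74 (SE 0.22) beside the -0.64 of Fcgr2b itself. Ptpn6 (SHP-1) had a log2 fold change of -0.87, Pirb (an ITIM receptor) -0.85 and Dok3 (a negative adaptor) -0.56. The exception was Ptpn11, the widely expressed phosphatase SHP-2, at 222 ± 19.6 CPM in KO and 210 ± 9.07 CPM in WT (SD, n = 3 each).

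The list of receptors that signal through Fcer1g or Tyrobp, which also holds the adaptor gene Hcst, had a median of -1.02, with 11 of its 12 tested genes lower, 8 of them without overlap. Clec5a, which pairs with DAP12, was at 12.2, 8.68 and 3.15 CPM in KO arteries and 18.1, 24.4 and 16.5 CPM in WT arteries. Trem1 and Clec4d had log2 fold changes of -1.66 (SE 0.73) and -1.38 (SE 0.68), and of -0.69 and -0.77 without WT 2 and KO 3. Trem1 was at a low level, 0.747 ± 0.51 CPM in KO and 2.355 ± 1.23 CPM in WT (SD, n = 3 each). Hcst, whose product DAP10 is a related adaptor and whose gene lies 132 bases from Tyrobp on the opposite strand, was at 1.38, 1.14 and 1.18 CPM in KO and 2.501, 1.92 and 2.82 CPM in WT. All 6 subunit and regulator genes of the phagocyte oxidase, which Fc gamma receptors activate, were lower without overlap, with a median of -0.81. Among these, Ncf1 was at 33.5 ± 9.01 CPM in KO and 59.8 ± 9.66 CPM in WT, Cybb at 118 ± 56.5 CPM in KO and 220.1 ± 24.6 CPM in WT, and Rac2 at 17.5 ± 5.97 CPM in KO and 30.1 ± 4.16 CPM in WT (SD, n = 3 each).

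All 10 transcription factors of myeloid cells were lower by log2 fold change (median -0.45), 5 of them without overlap. Spi1, which encodes PU.1, was at 21.1, 23.2 and 10.3 CPM in KO arteries and 30.1, 33.3 and 41.2 CPM in WT arteries, with a log2 fold change of -0.94 (SE 0.32). Runx1 and Irf8 had log2 fold changes of -1.10 and -0.95. Without KO 3 the medians of these lists were -0.51 for the kinases and adaptors, -0.53 for the inhibitory side, -0.70 for the partner receptors, -0.54 for the oxidase and -0.25 for the transcription factors. Without KO 1 they were -0.88, -1.09, -1.57, -1.07 and -0.81 for the same lists in that order.

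Fc receptors outside the family showed no common direction: of 10 tested, 5 were lower and 5 higher, with a median of 0.00, and at an unadjusted p under 0.05 there were 1 lower and 2 higher (4.02% of all genes tested were higher at that level). Fcgrt, the neonatal Fc receptor that recycles IgG, was at 126 ± 20.6 CPM in KO and 110.3 ± 24.5 CPM in WT, and Trim21, the cytosolic Fc receptor, at 23.1 ± 1.94 CPM in KO and 21.7 ± 2.02 CPM in WT (SD, n = 3 each). Fcrls, an Fc receptor-like gene of mouse macrophages and microglia, was the one whose groups did not overlap, at 46.7 ± 18.9 CPM in KO and 92.6 ± 14.2 CPM in WT (SD, n = 3 each). Pigr, the polymeric immunoglobulin receptor of epithelia, was at 24.0 and 18.5 CPM in KO 2 and KO 3 but at 0.647 CPM in KO 1, against 1.01 to 1.64 CPM in WT. Fcrl1 and Fcrl5, Fc receptor-like genes of B cells, were at 1.41 ± 1.12 and 1.02 ± 0.508 CPM in KO, against 2.74 ± 0.909 and 0.419 ± 0.156 CPM in WT (SD, n = 3 each).

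**Figure D4:**
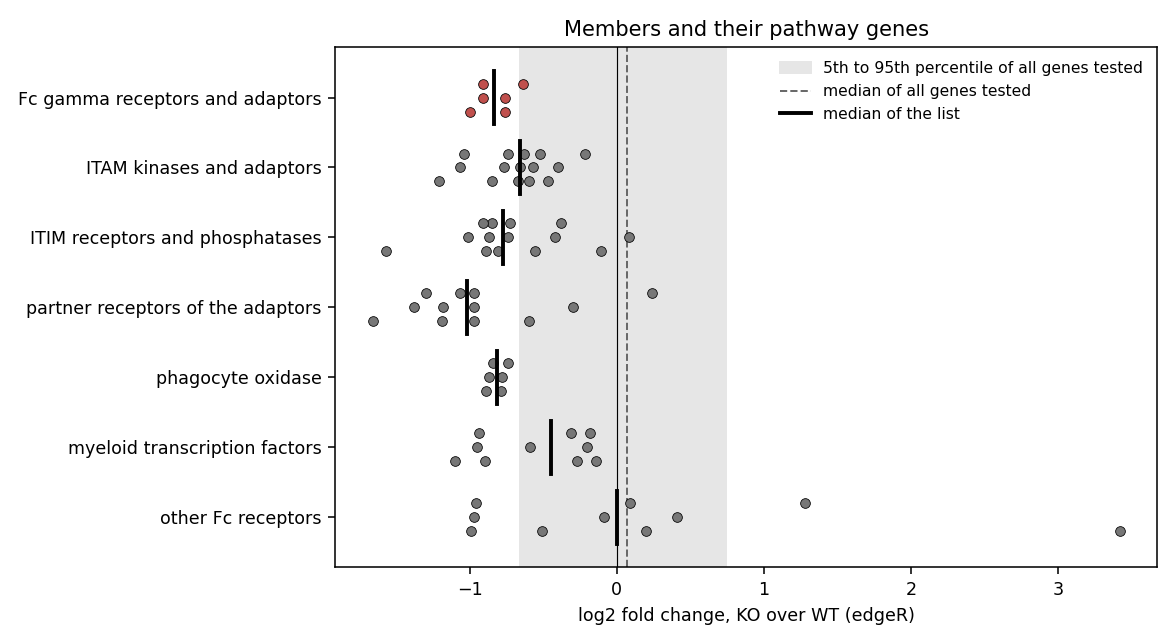
Log2 fold change of KO over WT (edgeR, 3 libraries a group) for the 6 members (red, top row) and each tested gene of 6 lists of pathway genes (grey); thick bars are list medians, the grey band spans the 5th to the 95th percentile of all genes tested (-0.66 to 0.74) and the dashed line is their median. Medians run from -1.02 to 0.00 over the lists, and the members' median is -0.84.

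Markers of the other cells that carry these receptors had the same order as the members in part. Summed NK cell markers were at 2.29 to 5.002 CPM in KO and 5.603 to 7.33 CPM in WT, and summed neutrophil markers at 9.74 to 18.4 CPM in KO and 25.5 to 40.1 CPM in WT, at levels far below the macrophage sum. Both sums were without overlap, as were 1 of 6 tested NK cell genes and 2 of 4 tested neutrophil genes. Of all genes tested, 8.38% had every KO library below every WT library. Ncr1 of the NK cell list and Retnlg, Mpo, Ngp and Camp of the neutrophil list did not pass the filter on low counts. Csf3r was the most abundant neutrophil marker, at 9.90 ± 2.74 CPM in KO and 21.8 ± 4.92 CPM in WT (SD, n = 3 each). Summed B and plasma cell markers (10.9 to 41.8 CPM in KO, 33.3 to 53.7 CPM in WT), the cells in which Fcgr2b is the main Fc receptor, overlapped between the groups. So did summed mast cell markers, cells that express Fcer1g with the IgE receptor, at 38.7 to 45.2 CPM in KO and 32.3 to 61.3 CPM in WT. Dendritic cell markers summed to 53.5 to 223 CPM in KO and 235 to 320.4 CPM in WT. Most of that sum was Itgax, at a mean of 111.5 CPM in KO and 242.8 CPM in WT, which macrophages also express. Of the 6 genes of the list 2 did not overlap and 2 were higher, with a median log2 fold change of -0.37. No marker of these 5 lists was at 0 in all libraries, and Ly6g was not among the genes listed.

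Fat, fibroblast, nerve and muscle transcripts also varied between these libraries. Summed adipocyte markers were at 991 to 1287 CPM in KO and 245 to 788 CPM in WT, with every KO library above every WT library, and 8 of 8 had a positive log2 fold change. Summed fibroblast markers were at 3226 to 7268 CPM in KO and 7646 to 9303 CPM in WT, with KO 3 lowest. That sum was carried by Col1a1 and Lum, the 2 of its 6 genes without overlap; the median log2 fold change of the list was -0.12, with 2 genes higher, and its mean log2 CPM overlapped between the groups. Sympathetic nerve markers were highest in KO 3, where the members were lowest, and next highest in WT 2, where Fcgr1, Fcgr2b and Fcgr4 were highest. Skeletal muscle markers were highest in KO 1, at 331 CPM, against 8.89 to 91.0 CPM in the other libraries. The part of these tissues in the values of the members was not tested.

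**Figure D5:**
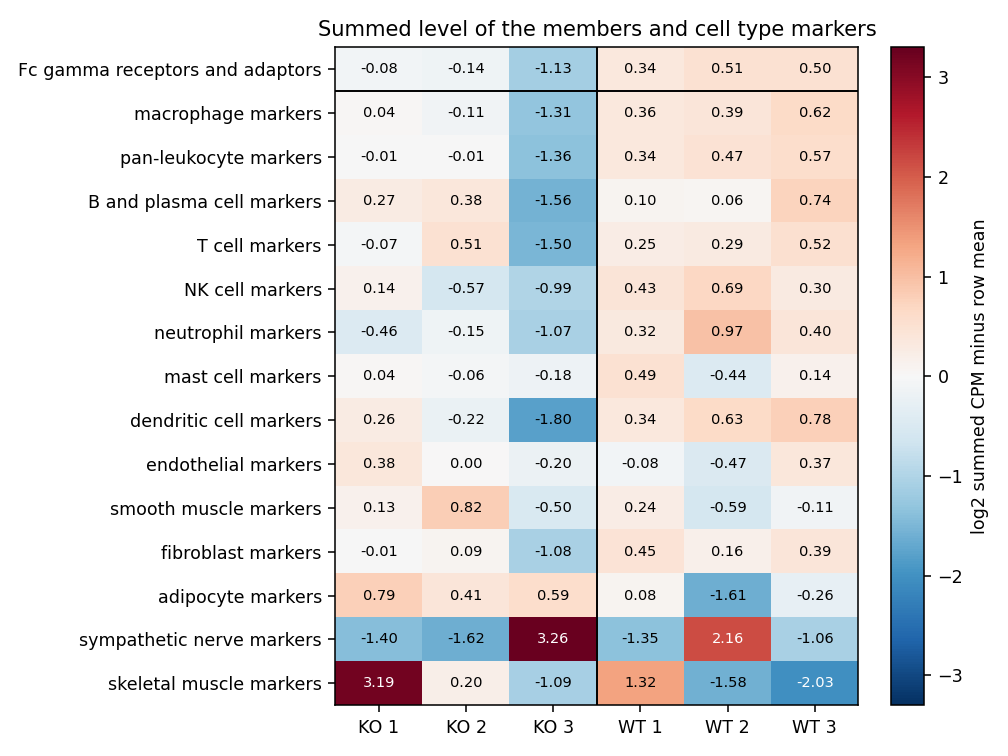
Summed CPM of the members and of each cell type marker list in each library, on a log2 scale and relative to the mean of the row; KO libraries stand left and WT libraries right of the line. The members' row runs from -1.13 (KO 3) to 0.51 (WT 2), close to the macrophage and pan-leukocyte rows, while the adipocyte row has KO above WT.

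The members followed a similar pattern over the libraries. Over the 6 libraries, the log2 CPM of a member had a Pearson r of 0.922 (Fcgr2b) to 0.990 (Fcgr3) with the mean of the other 5. Of 14701 other genes with a mean of at least 1 CPM, 489 (3.33%) had r above 0.95 with the mean profile of the members, so the pattern was not particular to the members. The 8 most alike were Gpr35, a G protein-coupled receptor, Psd4, Vav1, Tapbp (tapasin), Pik3cg (the gamma isoform of PI3 kinase), Cep55, Sla (an adaptor that dampens antigen receptor signalling) and Cd300lf (an inhibitory receptor of myeloid cells), with r from 0.9996 to 0.9977. They differed in size: Tapbp had a log2 fold change of -0.18 and Cd300lf of -1.47. These values describe 6 libraries that share 2 genotypes and 1 low library, and carry no test.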

How the data were processed

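Raw counts of reads per gene, not normalized, were deposited by the authors. Per the file headers, featureCounts (version 1.4.6-p4) assigned reads to exons of a UCSC mm9 annotation and summed them by gene name without a strand, read pair or multi-mapping option, so reads that align to several places were left out (29.9% to 33.4% of alignments). The submitters' processing notes also list STAR (as version 3.0), CASAVA, DESeq2 and Subread. The deposited exon lengths served to express levels per kilobase.

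From these counts, the groups were compared by edgeR's two-sided quasi-likelihood test (glmQLFit, glmQLFTest; edgeR 4.0.16, R 4.3.3) after TMM scaling and filterByExpr with its minimum count of 10, with Benjamini-Hochberg adjustment over the 15937 genes tested and a threshold of 0.05. Standard errors were derived from the F statistic. Log2 CPM used a prior count of 2. The step was checked on simulated counts. Alternatives were other scalings and filters, DESeq2 1.42.0, limma-voom (limma 3.58.1), the replicate number as a block and leaving out each library. Libraries were matched to animals by the sample titles and descriptions.

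The members, the lists of pathway and marker genes and the choice to leave out WT 2 and KO 3 were made with earlier results of these data known. Beside the members and Col15a1, named genes were up to 4 of each pathway list with the smallest unadjusted p, Syk, Inpp5d, Ptpn6, Hcst, Cd68, Csf1r, Cd163, Mrc1 and Ptprc, the 2 most abundant genes of other marker lists, the nearest genes in the table and the 8 genes with the most similar profile; Ptpn11, Fcgrt and Trim21 were named after their values were seen, and not every gene of the rule is described.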

Additional observations from a re-analysis of the deposited data

How the results depend on the processing

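All 6 members kept a negative log2 fold change and stayed above the adjusted threshold under all 15 alternatives, with 0 members called in each. The log2 fold change ran from -1.08 to -0.61 for Fcgr1, -1.03 to -0.49 for Fcgr3, -0.96 to -0.44 for Fcgr4, -0.86 to -0.42 for Fcgr2b, -1.26 to -0.62 for Fcer1g and -1.44 to -0.63 for Tyrobp. The smallest adjusted p of any member was 0.0928, for Fcgr1 in DESeq2. The number of genes called in all was 0 in edgeR (1275 at an unadjusted p under 0.05), 0 in limma-voom, 53 in DESeq2 and, in a choice made after seeing the data, 1 without WT 2 and KO 3; with single libraries left out it ran from 0 to 0. The cause of these differences was not tested. With the replicate number as a block, 0 genes and 0 members were called and the members' log2 fold changes ran from -1.16 to -0.67. Animals with the same number did not all deviate together (correlations of 0.426, -0.677 and -0.583). The highest correlation, 0.768, was between KO 3 and WT 2, the libraries that lay away from the rest. These correlations therefore cannot decide whether the numbers mark a pairing, and the labels name none. With single libraries left out, the difference in the log2 ratio of Fcgr2b ran from 0.21 to 0.35 to Fcgr1, from 0.01 to 0.37 to Fcgr3 and from -0.03 (without KO 2) to 0.22 to Fcgr4; the exact permutation p without KO 1 was 0.1 for Fcgr1 and Fcgr3, the smallest p that 2 against 3 animals allow. Counting error was at most 5.54% for a member in any library, and the number of animals, 3 a group, limits the precision.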
